A study of Mus musculus with 16 samples.

Results

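Of 734 genes counted on a NanoString nCounter myeloid innate immunity panel, which counts mRNA molecules with colour-coded probes and without amplification, the 5 genes *Prg2*, *Ear3*, *Ccr3*, *Il5ra* and *Ccl24* are treated together: 2 granule proteins of eosinophils, 2 receptors and a chemokine that attracts these cells. They were chosen by name with the values of the same mice known, as eosinophil genes and an eotaxin selected on the rise with erythropoietin (EPO), so their EPO values are given as a description and without a test. Of the 5 genes, 4 had that rise and *Il5ra* did not.

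RNA came from splenic CD11b+ cells of 16 wild type C57BL/6 (B6) mice, with 4 per group. Untreated animals formed the naive group, and the mice of the other 3 groups were taken on day 7. Allo mice were injected with 20e6 BALB/c splenocytes depleted of T cells and had no other treatment. CTLA4-Ig mice received these cells and 150 µg of CTLA4-Ig, a fusion protein that blocks CD28 costimulation, on day 2, and CTLA4-Ig/EPO mice received the cells, CTLA4-Ig and 5000 units/kg of EPO daily. The ages of the mice are not in the labels. The labels give the injection as intraperitoneal and the cells as CD11b+ by positive selection, whereas the paper's results give an intravenous route and CD11b+CD11c- cells. Its methods, like the labels, give CD11b+ cells by positive selection. For the injected cells, the paper names BALB/c splenocytes and mentions no depletion of T cells. A protocol field assigns the letter codes of naive and allo mice the other way round from the sample titles and treatment fields, and titles were followed, so each comparison of these groups rests on them.

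The unit throughout is the deposited normalized log2 value, which is the log2 of a whole molecule count times 1 factor per mouse. That factor was between 1.27 and 1.85 in naive mice and between 0.56 and 0.79 in the other mice. Total counts were 562760 to 843830 in naive mice, 700091 to 843363 in allo mice, 690326 to 912328 in CTLA4-Ig mice and 655838 to 827739 in CTLA4-Ig/EPO mice. The median log2 value over all genes was 7.26 ± 0.08 (SD, n = 4) in naive mice, 6.53 ± 0.04 in allo mice, 6.54 ± 0.09 in CTLA4-Ig mice and 6.75 ± 0.06 in CTLA4-Ig/EPO mice, so a step away from naive mice carries a general downward shift.

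The label of the cells was checked against *Itgam*, the gene of CD11b. *Itgam* had log2 values of 11.59, 11.41, 11.23 and 11.45 in naive mice, 8.80, 8.50, 9.16 and 8.95 in allo mice, 9.10, 9.28, 9.16 and 9.36 in CTLA4-Ig mice, and 9.18, 9.77, 9.48 and 9.79 in CTLA4-Ig/EPO mice. It was present in each mouse and lower in all 12 treated mice than in any naive mouse, so by *Itgam*, as by the factor, the mice titled naive stand apart from the rest and those titled allo do not. *Itgam* fell from naive to allo mice by 2.57 log2 (adjusted p = 2.31e-09, limma), and its difference with EPO was 0.33 (adjusted p = 0.0881, and 0.0427 in the fit with mouse numbers as pairs).

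Eosinophils are granulocytes that mature in the bone marrow under interleukin 5, which they sense through the receptor chain encoded by *Il5ra*, and they store basic proteins and ribonucleases in their granules. They follow eotaxins such as Ccl24 through the receptor Ccr3, and macrophages activated by type 2 cytokines are a known source of Ccl24. Eosinophils carry CD11b, as do neutrophils, monocytes and many macrophages, so a CD11b selection can retain all of these cells.

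The first comparison, of allo with naive mice, asks what the injected BALB/c cells do to these genes without any drug. Of the 5 genes, 4 fell, where 58.4% of all genes did, and 1, *Il5ra*, rose, where 11.9% of all genes did. On the scale of the deposited values the median of the differences of all genes was −0.65 log2, and relative to it *Prg2* was lower by a further 1.94, *Ccl24* by 0.96, *Ear3* by 0.88 and *Ccr3* by 0.78, while *Il5ra* was higher by 1.32. Fewer cells of a type and less RNA per cell cannot be told apart in these data. In the same step the mean of *Itgam*, the gene of the marker used for selection, was 11.42 in naive mice and 8.85 in allo mice. The part of the selection in the steps of the 5 genes was not tested.

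*Prg2*, major basic protein, is a toxic cationic protein that forms the core of the eosinophil granule, and its gene lies at chr2:84980461-84983632 (GRCm38.p6). Its log2 value was 10.53, 9.21, 8.99 and 10.74 in naive mice 1 to 4, from 796, 467, 304 and 1249 counts. In allo mice it was 8.18, 7.50, 6.46 and 6.98, from 397, 238, 139 and 201 counts. All naive mice lay above all allo mice, and naive mice 1 and 4 stood more than 1 log2 unit above naive mice 2 and 3. *Prg2* fell by 2.59 log2 (SE 0.42, 95% interval −3.50 to −1.68, adjusted p = 7.72e-05, limma). With total-count scaling the difference was −1.50. In CTLA4-Ig mice the *Prg2* value was 7.18, 6.92, 6.36 and 6.30, from 208, 153, 139 and 118 counts. These overlap the allo values, and the difference was −0.59 (95% interval −1.50 to 0.32, adjusted p = 0.811). In CTLA4-Ig/EPO mice *Prg2* was at 10.30, 11.12, 10.35 and 10.68, from 1741, 2922, 2327 and 2572 counts. Each of these lies above each CTLA4-Ig and allo mouse, and they overlap the naive range. The order of the group means was CTLA4-Ig/EPO 10.61 ± 0.38 (SD, n = 4), naive 9.86 ± 0.90, allo 7.28 ± 0.74 and CTLA4-Ig 6.69 ± 0.43, with overlap within the upper pair and within the lower pair.

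*Ear3* belongs to the eosinophil-associated ribonucleases, enzymes of the granule that break down RNA. The symbol matched no current gene of the RefSeq table, where it is found only as a synonym of unrelated nuclear receptor genes, so its identity rests on the panel's name. In naive mice its log2 value was 9.87, 10.04, 9.86 and 10.24, from 504, 831, 557 and 881 counts. In allo mice it was 8.92, 8.42, 8.17 and 8.37, from 664, 452, 456 and 527 counts. The log2 values of the groups do not overlap, while the recovered counts do, so the separation appears on the normalized scale. *Ear3* fell by 1.53 (SE 0.18, 95% interval −1.92 to −1.13, adjusted p = 3.75e-06). With total-count scaling the fall was 0.45 and missed the threshold (adjusted p = 0.0747). The CTLA4-Ig mice had *Ear3* at 8.62, 8.92, 8.43 and 8.07, from 564, 611, 585 and 402 counts, overlapping the allo mice, with mouse 4 below all of them (difference 0.04, 95% interval −0.36 to 0.43, adjusted p = 0.976). The CTLA4-Ig/EPO mice had it at 10.33, 10.64, 10.30 and 10.27, from 1780, 2091, 2249 and 1933 counts. These are above every mouse of the other 3 groups, with the second mouse apart from the other 3. Mean levels were 10.39 ± 0.17 with CTLA4-Ig/EPO, 10 ± 0.18 in naive mice, 8.51 ± 0.35 with CTLA4-Ig and 8.47 ± 0.32 in allo mice, the last 2 not differing beyond their spread.

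*Ccr3* encodes the eotaxin receptor, a chemokine receptor that eosinophils carry at high density. Its gene spans chr9:124017825-124031692. The naive mice had log2 values of 8.75, 8.41, 8.63 and 8.76 for *Ccr3*, from 233, 268, 237 and 317 counts. The allo mice had 7.37, 6.87, 7.21 and 7.37, from 227, 154, 235 and 263 counts. The normalized values again separate without overlap, and the counts overlap. *Ccr3* fell by 1.43 (SE 0.18, 95% interval −1.81 to −1.06, adjusted p = 4.32e-06), and the call was lost with total-count scaling (difference −0.35, adjusted p = 0.157). The CTLA4-Ig values of *Ccr3* were 7.15, 7.05, 7.51 and 7.12, from 204, 168, 310 and 208 counts. They overlap the allo values almost fully, with a difference of 0.00 (95% interval −0.37 to 0.38, adjusted p = 0.996). With CTLA4-Ig/EPO the *Ccr3* values were 9.82, 9.64, 10.46 and 9.81, from 1253, 1045, 2513 and 1405 counts. All 4 lie above all other mice, the third highest of all. The means were 9.93 ± 0.36 with CTLA4-Ig/EPO, 8.64 ± 0.17 in naive mice, 7.21 ± 0.21 with CTLA4-Ig and 7.21 ± 0.24 in allo mice, and the last 2 do not differ beyond their spread.

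*Il5ra* encodes the interleukin 5 binding chain of the receptor through which eosinophils, and also some B cells, receive their survival signal; it lies at chr6:106710375-106749037. Naive mice had *Il5ra* log2 values of 4.98, 4.43, 4.64 and 4.04, from 17, 17, 15 and 12 counts. Allo mice had 5.33, 5.67, 4.89 and 4.88, from 55, 67, 47 and 47 counts. The normalized values overlap through naive mouse 1, whereas the counts are apart, the reverse of *Ear3* and *Ccr3*. *Il5ra* rose by 0.67 (SE 0.21, 95% interval 0.22 to 1.12, adjusted p = 0.0115, limma). The call was lost in an unmoderated equal-variance test per gene (adjusted p = 0.0738). With total-count scaling the rise was 1.69. The level is low, and a count of 12 carries an exact 95% Poisson interval of 6.20 to 21.0 (counting error only). In CTLA4-Ig mice *Il5ra* was at 5.34, 4.71, 4.99 and 4.81, from 58, 33, 54 and 42 counts. The difference from allo mice was −0.23 (95% interval −0.68 to 0.22, adjusted p = 0.881), with overlap. In CTLA4-Ig/EPO mice *Il5ra* stood at 4.34, 4.19, 4.07 and 4.11, from 28, 24, 30 and 27 counts. All 4 values are below all CTLA4-Ig and allo mice, and they overlap the naive range. The order was allo 5.19 ± 0.38, CTLA4-Ig 4.96 ± 0.28, naive 4.52 ± 0.39 and CTLA4-Ig/EPO 4.18 ± 0.12, with the ranges of each neighbouring pair overlapping.

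Promoters are shown for the 2 receptors, which moved in opposite directions with EPO. A window of 250 bases before to 50 after the start of transcription was read from RefSeq (GRCm38.p6) for 2 of the 5 genes. The windows were searched on both strands for AGATAA and its variant AGATAG, and for TGATAA and its variant TGATAG, letters bound by GATA factors, which direct eosinophil development, and for TTCNNNGAA, letters bound by STAT factors, which act downstream of interleukin 5. The *Ccr3* window is chr9:124021721-124022020 on the plus strand, 4146 bases downstream of the outermost start of the gene, and the *Il5ra* window is chr6:106748988-106749287 on the minus strand. Capitals mark the GATA letters.
Ccr3: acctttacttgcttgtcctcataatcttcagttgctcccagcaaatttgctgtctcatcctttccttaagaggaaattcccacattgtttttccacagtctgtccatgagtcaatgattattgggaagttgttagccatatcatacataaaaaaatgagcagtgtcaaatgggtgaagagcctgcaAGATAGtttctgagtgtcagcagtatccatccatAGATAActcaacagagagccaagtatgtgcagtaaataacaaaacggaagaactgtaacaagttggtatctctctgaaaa
Il5ra: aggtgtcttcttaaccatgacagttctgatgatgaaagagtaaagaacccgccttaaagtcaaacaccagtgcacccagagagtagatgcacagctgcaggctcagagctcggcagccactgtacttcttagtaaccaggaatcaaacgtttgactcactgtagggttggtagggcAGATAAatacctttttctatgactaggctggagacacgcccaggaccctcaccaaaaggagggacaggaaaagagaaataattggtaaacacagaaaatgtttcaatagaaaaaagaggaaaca
The *Ccr3* window holds 2 GATA motifs, AGATAG at −64 and AGATAA at −30 from the start, and the *Il5ra* window holds 1, AGATAA at −74. Neither window holds the STAT letters. Of 32851 promoters of the table, 9778 (29.8%) hold a GATA motif and 2726 (8.30%) the STAT letters. A match is a description, not a site or a cause. Windows were not in the table for *Prg2*, *Ear3* and *Ccl24*.

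*Ccl24*, eotaxin-2, is a secreted ligand of Ccr3 and the attractant of the group; its gene is at chr5:135569935-135573123. Naive mice gave *Ccl24* log2 values of 5.48, 4.86, 4.83 and 5.88, from 24, 23, 17 and 43 counts. Allo mice gave 4.00, 3.30, 3.80 and 3.50, from 22, 13, 22 and 18 counts. The normalized values do not overlap and the counts do. *Ccl24* fell by 1.61 (SE 0.25, 95% interval −2.15 to −1.07, adjusted p = 5.28e-05), a call that total-count scaling did not keep (difference −0.50, adjusted p = 0.0843). The lowest count, 13, has an exact 95% Poisson interval of 6.92 to 22.2. With CTLA4-Ig the *Ccl24* values were 3.87, 4.25, 4.05 and 4.06, from 21, 24, 28 and 25 counts. They overlap the allo values (difference 0.41, 95% interval −0.14 to 0.95, adjusted p = 0.726). With CTLA4-Ig/EPO they were 7.78, 8.16, 8.70 and 7.74, from 305, 374, 741 and 334 counts. Every one of these is above every other mouse of the study, on either scale. The means ran from 8.09 ± 0.44 with CTLA4-Ig/EPO through 5.26 ± 0.51 in naive mice to 4.06 ± 0.15 with CTLA4-Ig and 3.65 ± 0.31 in allo mice, the last 2 overlapping.

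**Figure D1:**
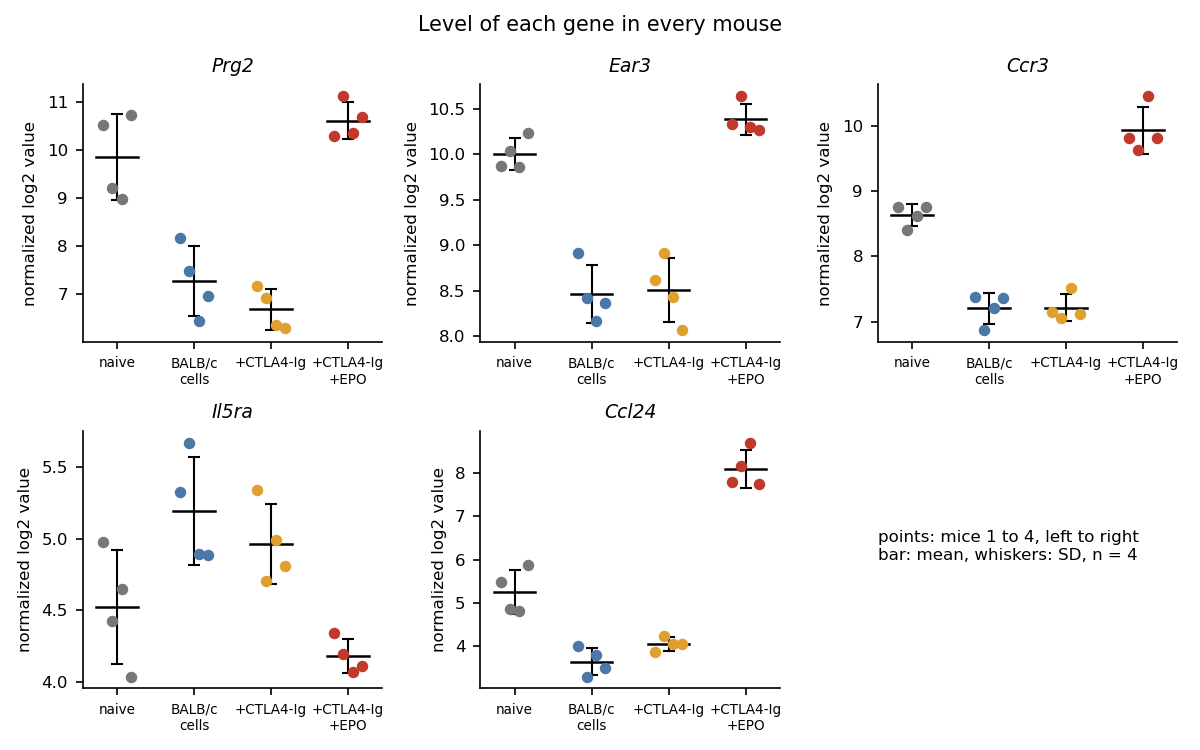
Normalized log2 value (vertical axis) of each of the 5 genes in each mouse, by group (horizontal axis), with the group mean and SD (n = 4). *Prg2*, *Ear3*, *Ccr3* and *Ccl24* are low in allo and CTLA4-Ig mice and high in CTLA4-Ig/EPO mice. The mean of *Il5ra* is lowest there on the deposited values, with mice at 4.07 to 4.34, while naive mouse 4 is lower, at 4.04. That place relative to naive mice turned with the other scalings.

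The allo step depended on how the mice were scaled. Among all 734 genes, 87 were called higher and 429 lower on the deposited values, 242 and 196 with median centring, 251 and 192 with quantile normalization, and 333 and 132 with total counts. The direction of each of the 5 genes stayed the same under these 4 scalings, while the sizes moved with the median difference of all genes. Median centring and total counts differ from the deposited values by 1 factor per mouse, apart from the pseudocount, so sizes relative to that median are alike by construction. Quantile normalization is not bound in this way, and with it *Prg2* was lower by 1.90 relative to that median and *Il5ra* higher by 1.47.

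The second comparison, of CTLA4-Ig with allo mice, asks what costimulation blockade adds. None of the 5 genes was called, and neither was any other gene: limma called 0 of 734 (0%), 70 genes had an unadjusted p below 0.05, and limma-voom on recovered counts also called 0. The intervals bound what could be seen. A change of *Ear3* or *Ccr3* of more than about 0.43 log2 in either direction lies outside them, while for *Prg2* a fall of up to 1.50 lies inside. The CTLA4-Ig mice of this step are also the controls of the EPO step on which the genes were chosen.

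The third comparison, of CTLA4-Ig/EPO with CTLA4-Ig mice, asks what EPO adds, and for the 5 genes it is a description. *Ccl24* differed by 4.04 log2, which is 16.4-fold, and *Prg2* by 3.92, which is 15.2-fold. *Ccr3* differed by 2.72, or 6.61-fold, and *Ear3* by 1.88, or 3.67-fold. *Il5ra* went the other way, by −0.78, to 0.581 of its level. In order of the difference with EPO over all 734 genes, *Ccl24* stood at place 1, *Prg2* at 2, *Ccr3* at 12, *Ear3* at 40 and *Il5ra* at 630. Without overlap between the groups, 4 of the 5 genes were higher and 1 was lower; over all 734 genes 156 were higher and 202 lower without overlap, and limma called 22.8% higher and 28.3% lower. The median of the differences of all genes was −0.07 in this step. Its 167 higher and 208 lower calls became 126 and 276 with median centring and 183 and 147 with total counts.

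The fourth comparison sets CTLA4-Ig/EPO mice beside naive mice and asks whether the levels reached with EPO are those of an untreated spleen. It was added after the values were seen and is a description for the 5 genes. *Ccl24*, *Ccr3* and *Ear3* were higher than in every naive mouse, by 2.83, 1.30 and 0.38 in the mean. So 3 of the 5 were higher without overlap and 0 were lower, and over all 734 genes 63 were higher and 398 lower without overlap. Limma called 9.13% of all genes higher and 61.7% lower. *Prg2*, at 0.75, and *Il5ra*, at −0.34, overlapped the naive mice. The median of the differences of all genes was −0.74, and relative to it the differences were 3.57 for *Ccl24*, 2.03 for *Ccr3*, 1.49 for *Prg2*, 1.12 for *Ear3* and 0.39 for *Il5ra*, whose sign thus turned with the scaling. Over all genes 67 were called higher and 453 lower on the deposited values, 168 and 249 with median centring, 223 and 191 with quantile normalization, and 340 and 90 with total counts.

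**Figure D2:**
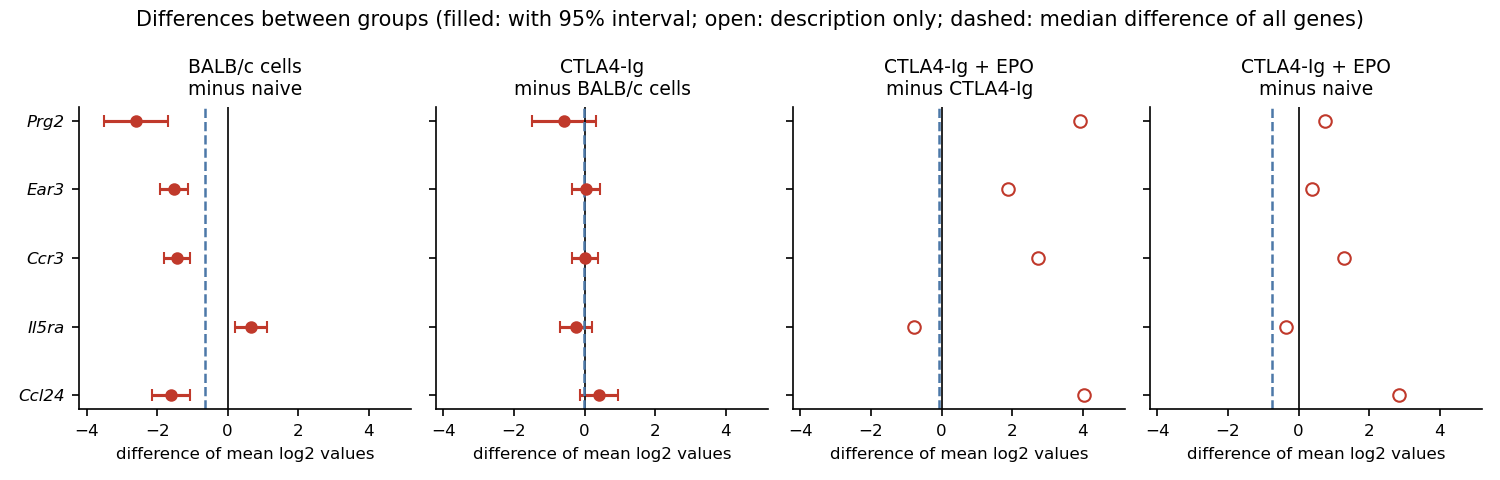
Difference in mean log2 value (horizontal axis) of each of the 5 genes in the 4 comparisons; filled points carry 95% limma intervals, open points are descriptions, and the dashed line marks the median difference of all 734 genes. In the CTLA4-Ig step all 5 intervals hold 0, and in the EPO step the points run from −0.78 for *Il5ra* to 4.04 for *Ccl24*.

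Variation among mice of the same group was not used to choose the genes, so it was tested. Each value was taken as its deviation from the group mean over 16 mice, and all 10 pairs were correlated with an exact two-sided permutation test that reorders mice within groups (331776 orders). The granule proteins *Prg2* and *Ear3* gave the largest coefficient, r = 0.669 (exact p = 0.00625, adjusted over 10 pairs p = 0.0625; rho = 0.656, exact p = 0.0230). Without allo mouse 1 and naive mouse 4, the farthest from the median of *Prg2*, r was 0.469. The pair passed the adjusted threshold without naive mouse 1 (r = 0.782, exact permutation p = 0.00699 after adjustment) or without naive mouse 2 (adjusted p = 0.0476). The receptor *Ccr3* and its ligand *Ccl24* gave r = 0.611 (exact p = 0.0277, adjusted p = 0.139; rho = 0.526, exact p = 0.0490), and r = 0.487 without CTLA4-Ig mouse 3 and CTLA4-Ig/EPO mouse 3. The latter mouse was highest for both genes in its group, and without it alone r was 0.398. None of the 10 pairs was below 0.05 after adjustment. That also held in an alternative chosen after seeing the data, in which mice of the same number in the 2 CTLA4-Ig groups were reordered together (13824 orders), with an exact p of 0.00680 for *Prg2* with *Ear3* and 0.0268 for *Ccr3* with *Ccl24* (0.0549 for its rho). *Prg2* and *Ccr3*, both rising with EPO between groups, had r = −0.014 within groups (exact p = 0.959), and the other 7 coefficients lay between −0.381 for *Il5ra* with *Ccl24* and 0.473 for *Prg2* with *Ccl24*.

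**Figure D3:**
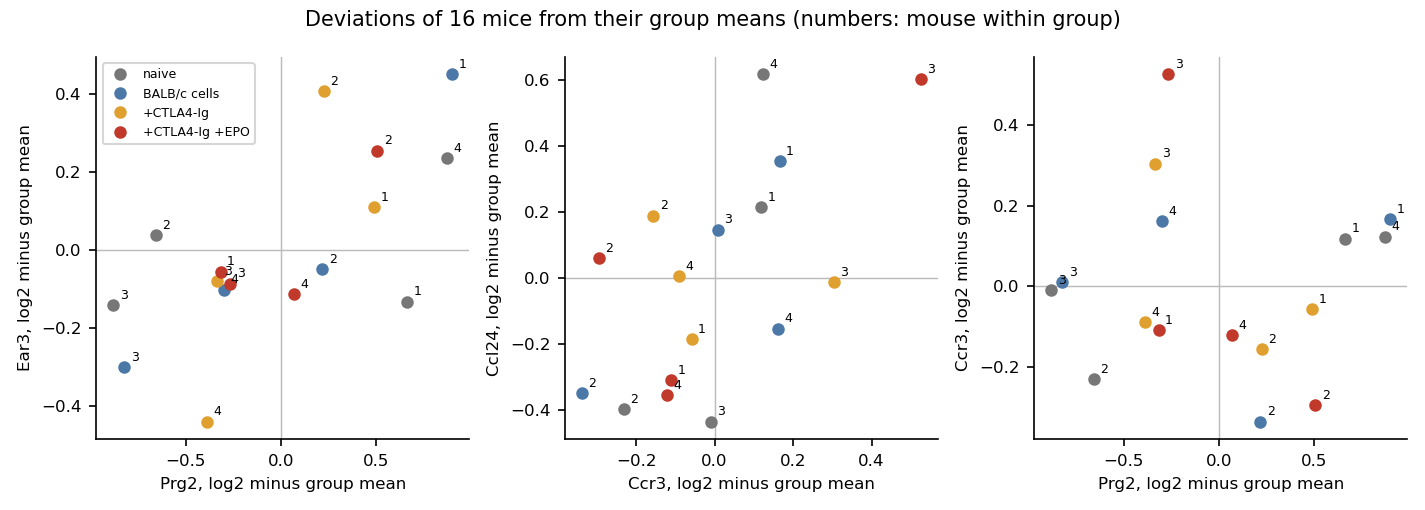
Deviation of each mouse from its group mean, in log2, for *Prg2* against *Ear3* and for *Ccr3* against *Ccl24*, with 16 mice coloured by group. The coefficients are 0.669 and 0.611, and neither passed the threshold after adjustment over 10 pairs.

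Other genes of the eosinophil were read from a list of 16, of which 8 were on the panel: *Epx* (eosinophil peroxidase), *Prg3* (a paralog of major basic protein beside *Prg2*, at chr2:84988196-84996559), *Ear6* (a further ribonuclease), *Siglecf* (the inhibitory lectin used to identify mouse eosinophils), *Alox15* (a lipoxygenase), *Ptgdr2* (a prostaglandin D2 receptor), and *Gata1* and *Gata2* (transcription factors). The most abundant by mean count over the 16 mice, the measure used for each list, was *Alox15* (86.0), although the order differs between groups, and none of the 8 was at the lowest count in all mice. All 8 fell from naive to allo mice, with a median of −2.13 against −0.65 over all genes; with total counts all 8 differences were negative and 5 were called. Neutrophil and monocyte markers fell in the same step: 9 of 9 mature neutrophil genes (12 listed), with a median of −4.31 and 9 called under each scaling, and 4 of 4 monocyte genes (6 listed), with a median of −1.51, of which 2 were called lower and 1 higher with total counts. The summed log2 level of the neutrophil genes, of which *S100a9* was the most abundant, was 19.55, 18.34, 18.00 and 18.42 in naive mice and 15.16, 13.82, 14.39 and 13.69 in allo mice. It was lower in every allo mouse than in any naive mouse. Not all lists of other cells fell, while 58.4% of all genes did. Of 11 red pulp macrophage genes 3 rose and 3 fell (8 and 0 with total counts), of 7 dendritic cell genes 4 rose and 1 fell (6 and 0), and all 3 T cell genes rose under each scaling. Of 3 NK cell genes 2 fell (1 rose with total counts), and all 4 cell division genes fell (3 rose with total counts). The part of any of these lists in the steps of the 5 genes was not tested. With CTLA4-Ig none of the 8 eosinophil genes was called. With EPO 5 rose, 0 fell and 3 were not called (median 1.36 against −0.07 over all genes, of which 22.8% rose and 28.3% fell), and 6 rose with total counts or with mouse numbers as pairs.

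*Epx*, the granule enzyme, had log2 values of 6.65, 4.66, 4.64 and 6.81 in naive mice and 3.79, 3.41, 2.34 and 3.65 in allo mice. With CTLA4-Ig it was at 4.12, 2.83, 2.94 and 3.51, and with CTLA4-Ig/EPO at 6.19, 6.90, 5.98 and 6.33. Naive mice 1 and 4 were high for *Epx* as they were for *Prg2*, and the CTLA4-Ig/EPO mice were above all CTLA4-Ig mice. *Epx* rose with EPO by 3.00 (SE 0.51, adjusted p = 1.57e-04, limma). *Ear6* had 7.58, 6.17, 6.32 and 7.90 in naive mice, 4.79, 3.99, 3.92 and 3.65 in allo mice, 4.12, 3.36, 3.24 and 2.00 with CTLA4-Ig, and 5.99, 6.85, 6.43 and 6.95 with CTLA4-Ig/EPO. It was again high in naive mice 1 and 4, and it rose with EPO by 3.37 (SE 0.46, adjusted p = 2.20e-05) in 4 of 4 mice. *Gata1* rose by 2.23 (SE 0.24, adjusted p = 2.57e-06), *Alox15* by 1.38 (SE 0.30, adjusted p = 0.00151) and *Prg3* by 1.34 (SE 0.21, adjusted p = 7.43e-05), each without overlap.

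*Siglecf* had the largest fall of the 8 in allo mice. In naive mice it was at 7.55, 7.05, 7.10 and 7.37, and in allo mice at 4.40, 3.41, 4.59 and 4.14. With CTLA4-Ig it was at 4.00, 4.57, 4.14 and 4.00, and with CTLA4-Ig/EPO at 4.70, 4.97, 4.21 and 4.88. The naive mice stand far above all others, and the CTLA4-Ig and CTLA4-Ig/EPO mice overlap. *Siglecf* fell by 3.13 from naive to allo mice (adjusted p = 2.77e-08). Its difference with EPO was 0.51 (SE 0.24, adjusted p = 0.0895), called with total counts only among the 4 scalings (0.59, adjusted p = 0.0346). Between mice of the same number it was 0.70, 0.40, 0.06 and 0.88, positive in 4 of 4, and it was called in the fit with mouse numbers as pairs (adjusted p = 0.0443). Against naive mice it was lower by 2.58 in CTLA4-Ig/EPO mice (adjusted p = 2.41e-07), as was *Ptgdr2* by 1.93 (adjusted p = 9.89e-06) and *Gata2* by 1.21 (adjusted p = 2.03e-04), the last not called with total counts (−0.01, adjusted p = 0.968). The other 5 of the list were not called against naive mice on the deposited values, and 4 of them, *Epx*, *Prg3*, *Alox15* and *Gata1*, were called higher with total counts. A test of whether the EPO step of *Siglecf* differs from those of *Epx*, *Prg3* and *Ear6* was run and withdrawn, because these genes were chosen after their values were seen, and no difference is claimed.

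**Figure D4:**
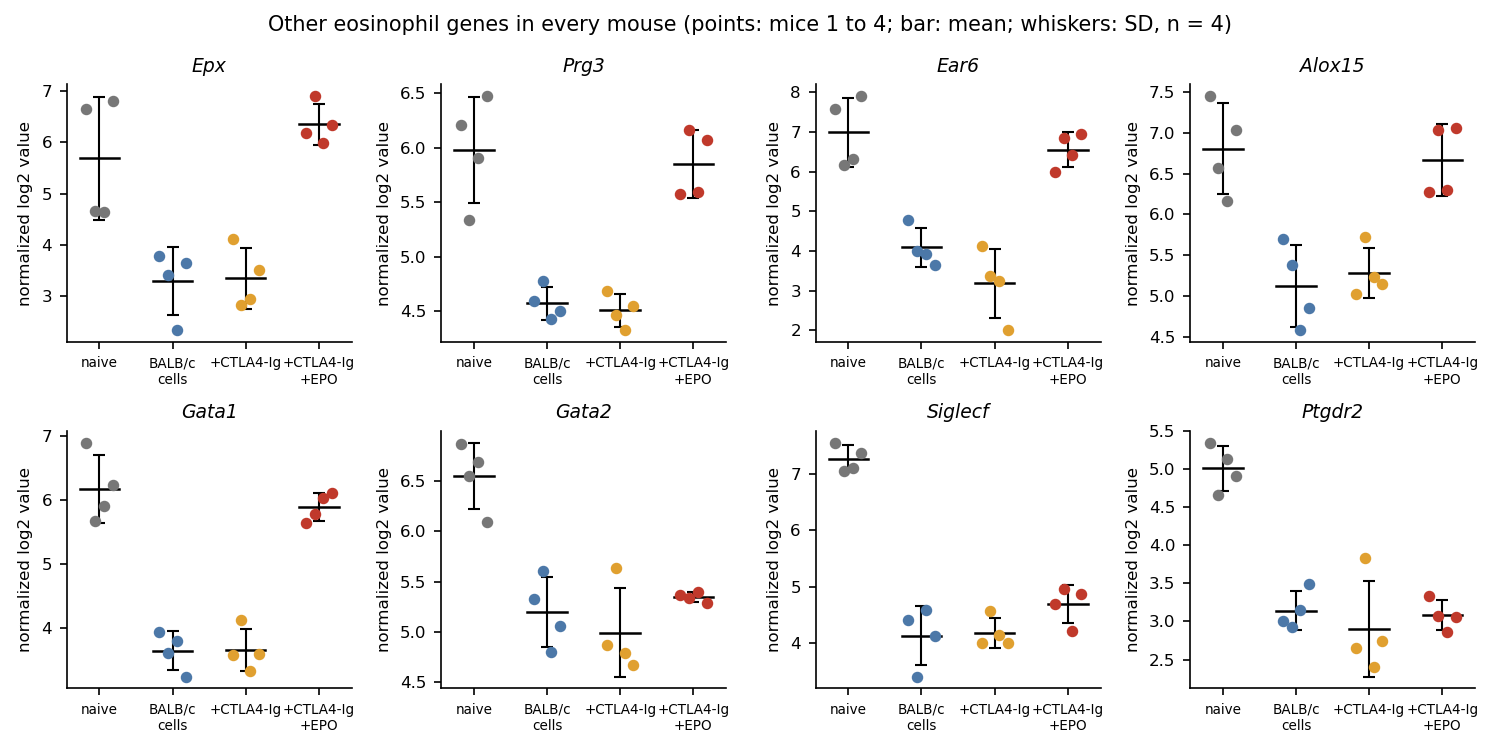
Normalized log2 value (vertical axis) in each mouse by group (horizontal axis) of 8 further eosinophil genes, with group mean and SD (n = 4). *Epx* and *Ear6* in CTLA4-Ig/EPO mice overlap the naive mice, and *Siglecf* lies between 4.21 and 4.97 there, below the naive mice and, in the mean, lower under each of the 4 scalings.

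Summed over the 8 genes, the log2 level was 9.97, 9.06, 9.16 and 9.83 in naive mice, 7.66, 7.45, 7.13 and 7.21 in allo mice, 7.29, 7.63, 7.08 and 7.07 with CTLA4-Ig, and 8.60, 9.16, 8.68 and 9.10 with CTLA4-Ig/EPO. The CTLA4-Ig/EPO mice were above all allo and CTLA4-Ig mice, and 2 of them were above the lowest naive mouse. The part of the number of eosinophils in the values of the 5 genes was not tested.

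*Ccl24* is 1 of several ligands of Ccr3, and the other 5 on the list were all on the panel. *Ccl26*, a further eotaxin on the panel, was not on the list; its difference with EPO was −0.08 (adjusted p = 0.845). With EPO 0 of these 5 rose, 1 fell and 4 were not called, where 22.8% of all genes rose and 28.3% fell. The gene that fell was *Ccl5*, a chemokine of T and NK cells and the most abundant of them, by 0.79 (adjusted p = 0.00104). In the fit with mouse numbers as pairs, *Ccl7* was called higher (0.72, adjusted p = 0.0361, against 0.399). That fit also leaves out naive and allo mice, and the part of each change was not tested. *Ccl11*, the eotaxin of tissues, had log2 values of 2.29, 2.83, 0.82 and 2.59 with CTLA4-Ig and 2.34, 2.19, 0.75 and 1.36 with CTLA4-Ig/EPO, a level near the lowest count. Its difference with EPO was −0.47 (adjusted p = 0.472). From naive to allo mice 1 ligand was called higher and 2 lower on the deposited values, against 11.9% and 58.4% of all genes. With the other 3 scalings the counts were 1 and 0.

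Of 25 genes of interleukin 5 family and type 2 cytokine signalling, 17 were on the panel. *Il5* itself, the ligand of the *Il5ra* product, was at 2.06, 1.66, 1.56 and 1.42 with CTLA4-Ig and at 1.53, 2.19, 1.97 and 1.68 with CTLA4-Ig/EPO. The groups overlap (difference 0.17, adjusted p = 0.603). With EPO 2 of the 17 rose and 4 fell, where 22.8% and 28.3% of all genes did, and under the other scalings 1 to 2 were called higher and 3 to 6 lower. *Il1rl1*, the interleukin 33 receptor, rose by 2.11 (adjusted p = 2.54e-05) and *Il3ra*, a receptor chain for interleukin 3, by 0.63 (adjusted p = 0.00938). *Il4ra*, the interleukin 4 receptor chain, fell by 0.62 (adjusted p = 2.77e-04) and *Gata3*, a transcription factor of type 2 lymphocytes, by 1.19 (adjusted p = 2.98e-05). *Stat6*, the most abundant of the list, differed by −0.18 (adjusted p = 0.0757). In allo mice 1 gene was called higher and 13 lower than in naive mice, against 11.9% and 58.4% of all genes, and 6 and 2 with total counts.

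Genes of alternative macrophage activation, the state in which macrophages make Ccl24, were on the panel for 12 of 14. With EPO 7 rose, 1 fell and 4 were not called, against 22.8% and 28.3% of all genes called higher and lower (2 fell with mouse numbers as pairs, median centring or quantile normalization, and 0 with total counts), with a median of 1.49 against −0.07 over all genes, and 7 rose under each scaling. *Retnla*, a secreted protein induced by interleukin 4, was at 5.09, 5.33, 5.75 and 5.97 with CTLA4-Ig and at 7.97, 8.21, 8.15 and 8.12 with CTLA4-Ig/EPO. The groups are apart, and *Retnla* rose by 2.58 (adjusted p = 2.30e-06). *Fn1*, fibronectin, rose by 2.33, *Chil3*, a chitinase-like protein and the most abundant of the list, by 1.84, and *Mrc1*, the mannose receptor, by 1.65, each without overlap. The list did not move as 1, since 7 of the 12 differences were positive and the rest negative. *Pdcd1lg2* had the lowest difference, −0.42. The mean of *Tgm2* was 9.02 with CTLA4-Ig and 8.70 with CTLA4-Ig/EPO, also without overlap. From naive to allo mice 2 were called higher and 6 lower, where 11.9% and 58.4% of all genes were, and 6 and 4 with total counts.

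Markers of other cells that a CD11b selection can hold moved in the same steps. Of 15 red pulp macrophage genes 11 were on the panel, and all 11 rose with EPO, where 22.8% of all genes rose and 28.3% fell. Their median was 1.72 against −0.07 over all genes, and all 11 rose under each scaling. Their summed log2 level was 13.23 to 13.39 in CTLA4-Ig mice and 14.83 to 15.29 in CTLA4-Ig/EPO mice. The most abundant was *Vcam1*, though not in naive mice. The granulocyte progenitor list had 5 of 8 on the panel, and *Mpo*, its most abundant gene, *Elane* and *Ctsg*, proteins of early neutrophil granules, rose with EPO by 2.88, 2.54 and 3.12. *Kit*, a growth factor receptor of progenitors, fell by 0.47 (adjusted p = 0.0102), a call lost with total counts, and *Cd34*, a surface marker of progenitors, differed by 0.39 (adjusted p = 0.389). The summed level of that list was 12.60, 11.15, 10.54 and 11.94 in naive mice, 9.80, 8.90, 9.02 and 8.85 in allo mice, 9.24, 8.86, 8.88 and 8.56 with CTLA4-Ig, and 10.83, 11.46, 11.10 and 11.39 with CTLA4-Ig/EPO. Naive mice 1 and 4 were high here, as they were for *Prg2*. Their part in the results on the 5 genes was not tested.

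Basophils and mast cells share *Gata2* and part of the receptor repertoire with eosinophils. Of 11 such genes 8 were on the panel, of which 3 rose and 2 fell with EPO (4 and 2 with quantile normalization, 3 and 1 with total counts), where 22.8% and 28.3% of all genes did. *Fcer1a* and *Ms4a2*, chains of the IgE receptor, rose by 1.33 and 1.28, and *Hdc*, the histamine-forming enzyme, differed by 0.18 (adjusted p = 0.530). *Hdc* was the most abundant of the list over the 16 mice, a place that rests on the naive mice (10.73 to 11.33, against 6.18 to 7.17 in the others). The summed log2 level was 11.22 to 11.69 in naive mice, 8.94 to 9.07 in allo mice, 8.98 to 9.42 with CTLA4-Ig and 9.04 to 9.38 with CTLA4-Ig/EPO, so the last 3 groups overlap. Their part in the results was not tested.

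The B cell list, relevant since some B cells carry *Il5ra*, had *Ms4a1* (CD20) alone on the panel, 1 of 7. *Ms4a1* was at 9.78, 9.88, 9.95 and 9.81 in naive mice, 11.47, 11.30, 11.39 and 11.19 in allo mice, 11.22, 11.31, 11.37 and 11.09 with CTLA4-Ig, and 10.77, 10.71, 10.20 and 10.29 with CTLA4-Ig/EPO. It was highest in allo and CTLA4-Ig mice, the groups in which *Il5ra* was highest. *Ms4a1* rose by 1.48 in allo mice (adjusted p = 1.02e-07) and fell by 0.76 with EPO (adjusted p = 1.58e-04). Its part in the values of *Il5ra* was not tested.

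The remaining lists, with EPO, were these, beside 22.8% of all genes higher and 28.3% lower. Of 9 mature neutrophil genes 4 rose and 1 fell (6 and 1 with total counts, 5 and 1 with mouse numbers as pairs). The gene that fell, *Il1r2*, differed by −3.08, while the largest rise of that list was 1.94. Of 4 monocyte genes 2 rose and 1 fell (1 and 1 with median centring, 2 and 0 with total counts). Of 7 dendritic cell genes (10 listed) 1 rose and 3 fell (0 and 3 with median centring or quantile normalization, 1 and 4 with pairs), and all 3 T cell genes (8 listed) fell. All 3 NK cell genes (6 listed) fell, though with total counts 1 was called. All 4 cell division genes (9 listed) rose. *Gata1* was the single erythroid gene of 12 listed, and *Pf4*, the single platelet gene of 6, rose by 1.29. Defining genes such as hemoglobins and *Cd3e* were not on the panel, and no gene of these lists was at the lowest count in all 16 mice.

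Likeness of profile was measured as the root mean square difference of log2 values over 16 mice, each gene centred on its own mean. *Prg2* was nearest to *Epx* (0.50), *Mpo* (0.51) and *Ctsg* (0.53), where the median over all genes was 1.72. *Ear3* had near it *Isg15* (0.30), an interferon-induced ubiquitin-like protein, and *C3ar1* (0.31), the receptor for complement C3a, with a median of 0.97. *Ccr3* was nearest to *Ptgs1* (0.22), a cyclooxygenase, *Igf1* (0.37), a growth factor, and *Nr1h3* (0.40), a nuclear receptor of lipid metabolism, with a median of 1.28. So the granule protein *Prg2* had other granule genes beside it, while *Ccr3* had none of the 8 further eosinophil genes among its 3 nearest. *Il5ra* was nearest to *Cxcl16* (0.24), *H2-DMb1* (0.25) and *Flt3* (0.26), a chemokine, an antigen-loading protein and a growth factor receptor of dendritic cells, with a median of 0.76. *Ccl24* was nearest to *Pdzk1ip1* (0.56), *Lpl* (0.60), a lipase, and *Tspan8* (0.60), a tetraspanin, with a median of 1.91.

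**Figure D5:**
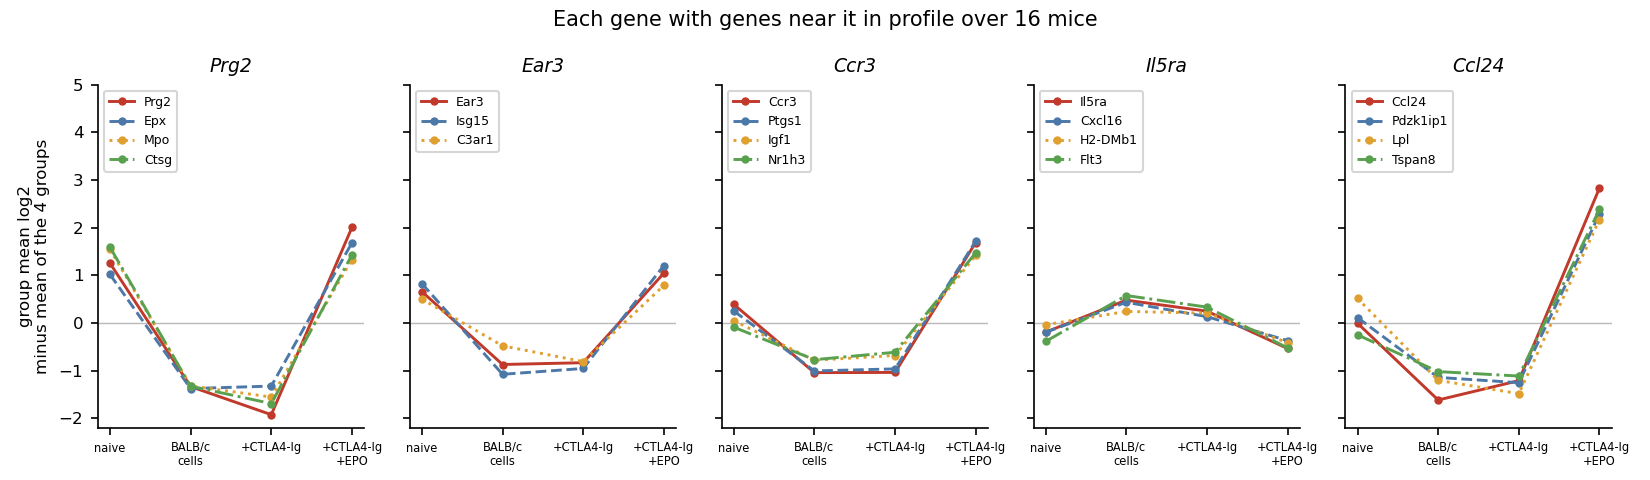
Group mean log2 minus the mean of the 4 groups (vertical axis) by group (horizontal axis) for each of the 5 genes with genes near it in profile over 16 mice, 2 for *Ear3* and 3 for each of the others. *Ptgs1* runs closest to *Ccr3*, at a root mean square difference of 0.22, and the lines of *Il5ra* and its neighbours are inverted relative to the other 4 panels.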

How the data were processed

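The deposited log2 values of 734 genes in 16 mice were used as given; the authors normalized raw counts in limma, and what the factor of each mouse was computed from is not stated. Counts were recovered, whole to within 0.001 in 100% of values. All 5 genes passed a filter on the lowest 25% of genes, and none was at the lowest count of 1.

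A limma (3.58.1, R 4.3.3) fit of 4 group means to all genes gave each difference, two-sided, with Benjamini-Hochberg adjustment over 734 genes and a threshold of 0.05, without a filter. Adjusted p values are from this fit unless another test is named. Between mice with CTLA4-Ig alone and with EPO added, mouse numbers were taken to pair. This is an assumption, since the numbers come from the sample titles, which do not state a pairing. Their deviations correlated at 0.143 to 0.184 in all 4 pairs. Mice of different numbers were not compared in this way, so these values do not show that the mice were paired. A fit with these pairs is given where it changed a call. It holds only the mice of these groups, so it differs from the main fit in the pairs and in the mice left out.

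The 5 genes and the 16 lists were chosen with earlier results of these data known. Named are the 5 genes, up to 6 genes a list and up to 3 of the nearest in profile. The comparison of CTLA4-Ig/EPO with naive mice and the paired values of single list genes were chosen after seeing the data. Symbols matched RefSeq for 724 of 734 genes and 4 of the 5. Python 3.11.15 with numpy 2.4.6, scipy 1.17.1 and matplotlib 3.10.9 did the rest.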

Additional observations from a re-analysis of the deposited data

Results flagged for a closer look

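*Ear3* in the CTLA4-Ig/EPO group had 1 mouse, the second, at a log2 value of 10.64, far from the other 3 relative to the range of the group (10.27 to 10.64). Chance marks about 1 in 20 groups in this way, and 1 of the 52 groups tested was marked.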

How the results depend on the processing

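With limma, from naive to allo mice, each of the 5 genes kept its direction under every alternative run. Calls were lost with total counts for *Ear3* (−0.45, adjusted p = 0.0747), *Ccr3* (−0.35, adjusted p = 0.157) and *Ccl24* (−0.50, adjusted p = 0.0843), with limma-voom for *Ccr3* (−0.34, adjusted p = 0.155) and *Ccl24* (−0.51, adjusted p = 0.197), and with an unmoderated equal-variance test per gene for *Il5ra* (0.67, adjusted p = 0.0738); the cause was not tested. Over all alternatives the adjusted p reached 0.0747 for *Ear3*, 0.157 for *Ccr3*, 0.197 for *Ccl24* and 0.0738 for *Il5ra*. Leaving out each mouse gave −2.89 to −2.30 for *Prg2*, −1.68 to −1.43 for *Ear3*, −1.51 to −1.32 for *Ccr3*, 0.51 to 0.82 for *Il5ra* and −1.76 to −1.40 for *Ccl24*.

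In the CTLA4-Ig step, calls numbered 70 without adjustment, as the looser threshold allows, and 0 to 1 when a mouse was left out (1 without allo mouse 1 or allo mouse 3). *Ccr3* changed sign with median centring (−0.0065) and quantile normalization (−0.0069). Leaving out a mouse gave −0.108 to 0.0594 for *Ccr3* and −0.098 to 0.188 for *Ear3*. It gave −0.862 to −0.289 for *Prg2*, −0.356 to −0.0723 for *Il5ra* and 0.290 to 0.524 for *Ccl24*. The cause was not tested.

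Of the correlations, *Prg2* with *Ccr3* changed sign with median centring (0.0071), *Ear3* with *Ccr3* with total counts (0.211), and *Ear3* with *Il5ra* with total counts (0.045) and without the 2 farthest mice (0.0548). Ranges without 1 mouse were 0.557 to 0.782 for *Prg2* with *Ear3*, −0.133 to 0.113 for *Prg2* with *Ccr3*, −0.268 to 0.0324 for *Ear3* with *Ccr3*, −0.163 to 0.155 for *Ear3* with *Il5ra* and −0.338 to 0.0113 for *Ccr3* with *Il5ra*. They were 0.398 to 0.687 for *Ccr3* with *Ccl24*, 0.0739 to 0.603 for *Prg2* with *Il5ra* (without naive mouse 1 and naive mouse 4), 0.304 to 0.649 for *Prg2* with *Ccl24*, 0.181 to 0.442 for *Ear3* with *Ccl24* and −0.551 to −0.139 for *Il5ra* with *Ccl24*; the cause was not tested.

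With the mouse number as a block, 475, 0 and 400 genes were called by limma in the 3 steps and no call of the 5 genes changed (*Il5ra* adjusted p = 0.0343). Among the list genes, the EPO fit with pairs, which also leaves out naive and allo mice, changed some calls. These were *Siglecf*, *Ccl7*, *Pdcd1lg2*, *Mmp8* and *Irf8* and no others. Whether the pairs or the mice left out moved them was not tested. For *Irf8* the SD was 4.42 in naive mice, which the main fit includes. It was 0.09 with CTLA4-Ig and 0.16 with CTLA4-Ig/EPO. Mouse numbers correlated at −0.058 to 0.165 between naive and allo mice and at 0.016 to 0.293 between allo and CTLA4-Ig mice. Among the 5 genes, depth limits *Il5ra* and *Ccl24* most, with lowest counts of 12 and 13; *Epx* and *Ear6* had lowest counts of 8 and 6.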

Other observations

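*Irf8*, a transcription factor of dendritic cells and a gene of the dendritic cell list, had log2 values of 0.89, 9.64, 9.87 and 9.70 in naive mice 1 to 4, and 9.36 to 10.16 in the other 12 mice. The first naive mouse is at the lowest count of 1 for this gene, while its values for the 5 eosinophil and eotaxin genes lie within the range of the other naive mice for 4 of them, and *Il5ra*, at 4.98, is the highest of the 4 mice. This gene was chosen after its values were seen.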
